A study of Homo sapiens with 2 samples.

Results

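The genes described here are 35 aminoacyl-tRNA synthetases, the enzymes that join each amino acid to its transfer RNA. They were chosen by gene name, as a family proposed with earlier results of these data known, and are 35 of the 18377 genes that the arrays measured. Of these, 19 serve the cytosol and 16 the mitochondrion, and every one of them had at least 1 probe that the platform annotation ties to a single gene. Aminoacyl-tRNA synthetases outside the 35 were not analysed here, except TARS3, which is counted in the accessory list below. Expression was measured in K562, a long-established human line from a chronic myeloid leukaemia driven by the BCR-ABL1 kinase, with 1 whole-transcript Affymetrix Gene ST array for each of 2 cultures. Erythropoietin (EPO), a hormone that keeps red cell precursors alive and dividing, was present in the first culture. The second culture was taken as grown without EPO, because its label names none and the growth protocol describes both conditions. Both cultures received imatinib, a drug that blocks BCR-ABL1, at 2 µM for 6 h, and cells without imatinib were not analysed here.

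A synthetase recognises its amino acid and its tRNA and joins them at the expense of ATP, and the charged tRNA then delivers the amino acid to the ribosome. Cytosolic and mitochondrial protein synthesis use separate sets of enzymes, all encoded in the nucleus, and a mitochondrial enzyme carries a final 2 in its gene symbol. GARS1 (glycine) and KARS1 (lysine) are the exceptions, since each gene supplies both compartments, and both are counted here with the cytosolic set. Several cytosolic enzymes are held together in the multisynthetase complex by the scaffold proteins AIMP1, AIMP2 and EEF1E1. Many cytosolic synthetase genes are known targets of ATF4, the transcription factor that is translated when amino acids run short or the endoplasmic reticulum is stressed. EPO acts in red cell precursors, which make globin at a high rate.

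Each value below is a deposited log2 value, the deviation of a probe from a baseline that the authors set, and is not a measure of transcript abundance. A difference is the value with EPO minus the value without EPO, which cancels that baseline. A gene was called higher or lower when the difference reached 2-fold, which is 1 on the log2 scale. With 1 array per group no difference has a replicate check and no test is possible. Folds assume a logarithm of base 2, which the sources used here do not state. The K562 label could not be checked against marker genes, since baseline-centred values hold no levels.

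The promoters of several cytosolic synthetases carry the core of the element that ATF4 binds together with C/EBP proteins, spelled TGATGNAA. Promoter windows were taken from RefSeq (GRCh38.p14) and run from 250 bases before to 50 bases after the transcript start. Such windows were at hand for 30 of the 35 genes, 16 cytosolic and 14 mitochondrial, and 9 of the 30 have several windows. The core stood, on either strand, in a window of 7 of the 16 cytosolic genes and of 1 of the 14 mitochondrial genes, against 3.59% of 13742 measured protein-coding genes with a window. All 8 matches are shown because the element is the known link between ATF4 and these enzymes. Each is written 5′ to 3′ on the strand that reads the core, with the core in capitals and 10 bases on each side.
AARS1, chr16:70289676-70289703, plus strand: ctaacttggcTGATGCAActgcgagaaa
CARS1, chr11:3057408-3057435, plus strand: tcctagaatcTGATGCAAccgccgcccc
GARS1, chr7:30594835-30594862, minus strand: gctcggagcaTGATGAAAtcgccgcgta
IARS1, chr9:92293693-92293720, plus strand: cgcacggaggTGATGCAAcgcgctgaaa
MARS1, chr12:57488054-57488081, minus strand: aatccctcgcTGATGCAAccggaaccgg
NARS1, chr18:57621805-57621832, minus strand: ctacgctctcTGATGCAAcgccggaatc
TARS1, chr5:33440957-33440984, minus strand: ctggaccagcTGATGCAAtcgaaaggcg
YARS2, chr12:32756077-32756104, minus strand: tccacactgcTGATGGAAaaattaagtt
The core is read as TGATGCAA in AARS1, CARS1, IARS1, MARS1, NARS1 and TARS1, as TGATGAAA in GARS1 and as TGATGGAA in YARS2. A match in these letters is not evidence that a factor binds there.

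Cytosolic synthetases were higher with EPO as a set, and mitochondrial synthetases much less so. Of the 19 cytosolic genes, 8 (42.1%) passed 2-fold upward with EPO and 0 downward, against 6.19% of all 18377 genes higher and 0.898% lower. Of the 16 mitochondrial genes, 1 (6.25%) was higher and 0 were lower, a share close to that of all genes. The median difference was 0.97 for the cytosolic set and 0.22 for the mitochondrial set, beside -0.047 for all genes, and the gap between the medians of the sets was 0.75. Subtracting a constant from all differences leaves this gap unchanged by construction, but changes the counts. Scalings that alter the spread of an array, or that depend on signal level, were not tried and could change the gap. Genes of cellular machinery, namely 215 genes of the proteasome, mitochondrial ribosome, complex I, nuclear pore, RNA polymerase II and spliceosome, had a median difference of 0.48, with 17.2% higher. With that median subtracted, 1 cytosolic gene (KARS1) and 0 mitochondrial genes stayed at least 2-fold higher, against 0.664% of all genes (6.85% were lower), and the medians became 0.49 and -0.26. The direction of the mitochondrial median is therefore not settled by these arrays. Families that most cells keep silent (451 genes of beta-defensins, keratin-associated proteins and receptors for odours, tastes and pheromones) had a median of -0.33. The part of this difference between gene classes in the synthetase result was not tested.

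**Figure D1:**
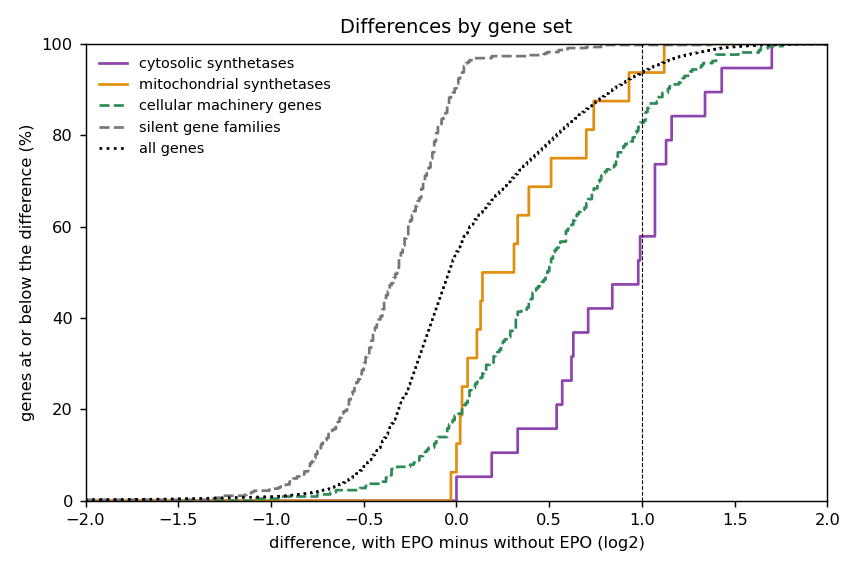
Cumulative share of genes (y axis, percent) at or below each difference, with EPO minus without EPO (x axis, log2), for the 19 cytosolic synthetases, the 16 mitochondrial synthetases, 215 machinery genes, 451 genes of silent families and all 18377 genes, with the 2-fold threshold dashed. The cytosolic curve lies to the right of the machinery curve over most of its range, with a median of 0.97 against 0.48, and the mitochondrial curve lies between all genes and machinery at its median of 0.22.

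The sets were also compared on each array separately, as deviations from the baseline. With EPO, the cytosolic genes lay between -0.018 and 0.36 (median 0.15) and the mitochondrial genes between 0.0022 and 0.35 (median 0.11), so that the sets overlapped almost entirely. Without EPO, the cytosolic genes lay between -1.36 and -0.013 (median -0.81) and the mitochondrial genes between -0.77 and 0.061 (median -0.12). All 19 cytosolic genes were below the baseline without EPO, 12 of them by more than 0.5, whereas 12 of the 16 mitochondrial genes were below it and 3 by more than 0.5. Among all genes, 16.7% were that far below the baseline without EPO, and among machinery genes 37.7% were. The array with EPO was closer to the baseline in general: the standard deviation across all 28869 probes was 0.134 with EPO and 0.431 without EPO. The baseline may itself have been built from these arrays and others, so a value near it does not show that a culture was unchanged. For the same reason these values do not show in which culture the sets parted.

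**Figure D2:**
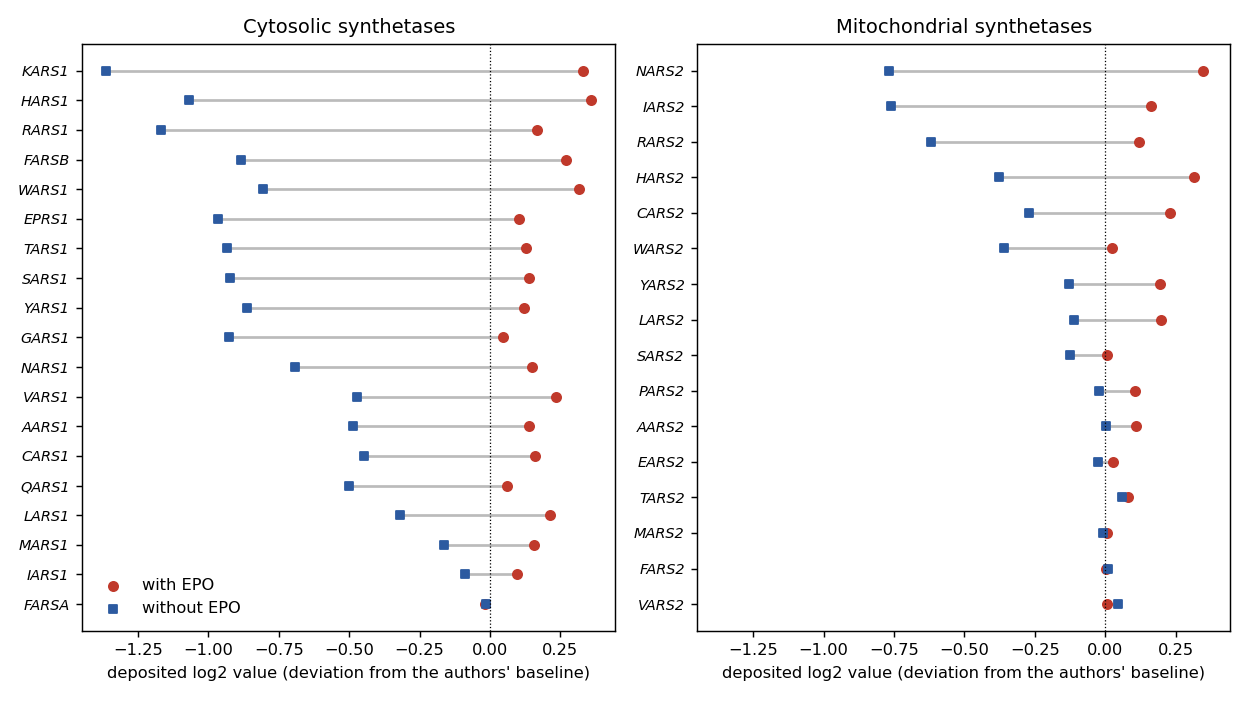
Deposited log2 value of each synthetase (x axis, deviation from the authors' baseline) with EPO (red circles) and without EPO (blue squares), 1 array each, with cytosolic enzymes on the left and mitochondrial enzymes on the right, ordered by their difference. The circles lie between -0.018 (FARSA) and 0.36 (HARS1) over both panels, while the squares reach -1.36 for KARS1 and -0.77 for NARS2.

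Among the enzymes of the multisynthetase complex, the largest difference belonged to the lysine enzyme. KARS1, the lysyl-tRNA synthetase of both compartments, stood at 0.33 with EPO and at -1.36 without EPO, a difference of 1.69 (3.23-fold). It was the highest of all 35 and lay at percentile 99.8 of all genes and 99.5 of machinery genes. RARS1, which charges arginine, stood at 0.17 with EPO and at -1.17 without EPO (1.33, 2.52-fold). EPRS1 is a fusion of glutamyl and prolyl enzymes in a single chain, and in interferon-treated myeloid cells it also helps to silence selected messenger RNAs. It stood at 0.10 with EPO and at -0.96 without EPO (1.07, 2.09-fold). The other 4 enzymes of the complex differed less. The glutamine enzyme QARS1 stood at 0.059 with EPO and at -0.50 without EPO, a difference of 0.56. LARS1, the leucine enzyme, which also reports leucine to the growth kinase mTORC1, stood at 0.21 with EPO and at -0.32 without EPO (0.54). Both differences were slightly above the machinery median of 0.48. MARS1, which charges methionine for initiation and elongation alike, stood at 0.16 with EPO and at -0.16 without EPO (0.32). IARS1, the isoleucine enzyme, stood at 0.096 with EPO and at -0.087 without EPO (0.18). Subunits that sit in a single particle thus spanned differences of 0.18 to 1.69, with a median of 0.56. Of these 7, 3 (42.9%) were at least 2-fold higher, beside 6.19% of all genes and 17.2% of machinery genes. The scaffold protein AIMP1 stood at 0.15 with EPO and at -0.38 without EPO (0.53), and AIMP2 and EEF1E1 had no probe of a single gene and were not analysed here.

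The 12 cytosolic enzymes outside the complex had a median difference of 0.98. Of them, 5 (41.7%) were at least 2-fold higher, beside 6.19% of all genes and 17.2% of machinery genes. HARS1, the histidine enzyme and the target of Jo-1 autoantibodies in myositis, stood at 0.36 with EPO and at -1.07 without EPO (1.43, 2.69-fold). The phenylalanine enzyme is built from 2 kinds of subunit, and its genes stood at opposite ends of the set. FARSB, the beta subunit, stood at 0.27 with EPO and at -0.88 without EPO (1.15, 2.23-fold). FARSA, the catalytic alpha subunit, stood at -0.018 with EPO and at -0.013 without EPO, a difference of -0.0046 that was the lowest of the cytosolic set. The enzyme holds both subunits in equal number. WARS1, the tryptophan enzyme that interferon gamma induces, stood at 0.31 with EPO and at -0.81 without EPO (1.12, 2.18-fold).

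The next genes lay on both sides of the 2-fold threshold. TARS1 (threonine) stood at 0.13 with EPO and at -0.93 without EPO, and SARS1 (serine) at 0.14 with EPO and at -0.92 without EPO, each with a difference of 1.06. YARS1 (tyrosine) stood at 0.12 with EPO and at -0.86 without EPO (0.99), just short of the threshold. GARS1, whose dominant mutations cause a Charcot-Marie-Tooth neuropathy, stood at 0.047 with EPO and at -0.93 without EPO (0.97). These 4 genes lay between 0.97 and 1.06, and the threshold happens to divide them. The other 4 cytosolic genes fell short of 2-fold more clearly. NARS1 (asparagine) stood at 0.15 with EPO and at -0.69 without EPO (0.84). VARS1 (valine) stood at 0.24 with EPO and at -0.47 without EPO (0.71), as the mean of 2 probes whose differences were 0.706 and 0.709. AARS1 (alanine) and CARS1 (cysteine) had differences of 0.62 and 0.61, AARS1 with 0.14 with EPO and -0.48 without EPO, and CARS1 with 0.16 with EPO and -0.45 without EPO. Apart from FARSA, every cytosolic gene outside the complex was above the machinery median of 0.48.

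The mitochondrial set divided into a few enzymes with differences like those of the cytosolic set and many with differences near 0. NARS2, the asparagine enzyme, was the only member past 2-fold, at 0.35 with EPO and at -0.77 without EPO (1.12, 2.17-fold). IARS2 (isoleucine) stood at 0.16 with EPO and at -0.76 without EPO (0.92). Both were low without EPO, well below the mitochondrial median of -0.12. RARS2, the arginine enzyme whose loss causes a pontocerebellar hypoplasia, stood at 0.12 with EPO and at -0.62 without EPO (0.74). HARS2, mutated in Perrault syndrome, stood at 0.32 with EPO and at -0.38 without EPO (0.70), and CARS2 at 0.23 with EPO and at -0.27 without EPO (0.50). These 5 were the mitochondrial genes above the machinery median.

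Another 3 mitochondrial enzymes had differences of 0.31 to 0.39. WARS2 (tryptophan) stood at 0.026 with EPO and at -0.36 without EPO, a difference of 0.39. YARS2, the tyrosine enzyme mutated in a myopathy with sideroblastic anaemia, stood at 0.19 with EPO and at -0.13 without EPO (0.32). LARS2 (leucine) stood at 0.20 with EPO and at -0.11 without EPO (0.31). The remaining 8, which charge serine, proline, alanine, glutamate, threonine, methionine, phenylalanine and valine, lay between -0.039 and 0.13. They were SARS2 at 0.13, PARS2 at 0.13, AARS2 at 0.11, EARS2 at 0.051, TARS2 at 0.021, MARS2 at 0.015, FARS2 at -0.0066 and VARS2 at -0.039, the lowest of all 35. On both arrays these 8 genes stayed near the baseline: with EPO the most distant was AARS2 at 0.11, and without EPO it was SARS2 at -0.12. The values of VARS2, whose probes differed by -0.034 and -0.045, were 0.0075 with EPO and 0.047 without EPO.

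The enzymes were then compared amino acid by amino acid. Of the 35 genes, 32 form 17 pairs of a cytosolic and a mitochondrial gene for the same amino acid, in which EPRS1 and FARS2 each appear in 2 pairs. QARS1, GARS1 and KARS1 have no mitochondrial partner and stand in no pair. The cytosolic gene had the larger difference in 15 pairs and the mitochondrial gene in 2, and the median gap was 0.66. In 11 pairs the cytosolic gene led by at least 0.5. The widest gap, 1.16, lay between FARSB and FARS2, followed by 1.04 for TARS1 against TARS2 and 1.01 for EPRS1 against EARS2. The pair FARSA and FARS2 counts among the 15 with a gap of only 0.0021. The exceptions were isoleucine and asparagine. IARS1 had a difference of 0.18 and IARS2 of 0.92, a gap of -0.74, and NARS1 had 0.84 and NARS2 1.12, a gap of -0.28. Subtracting a constant from all differences leaves these gaps as they are.

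**Figure D3:**
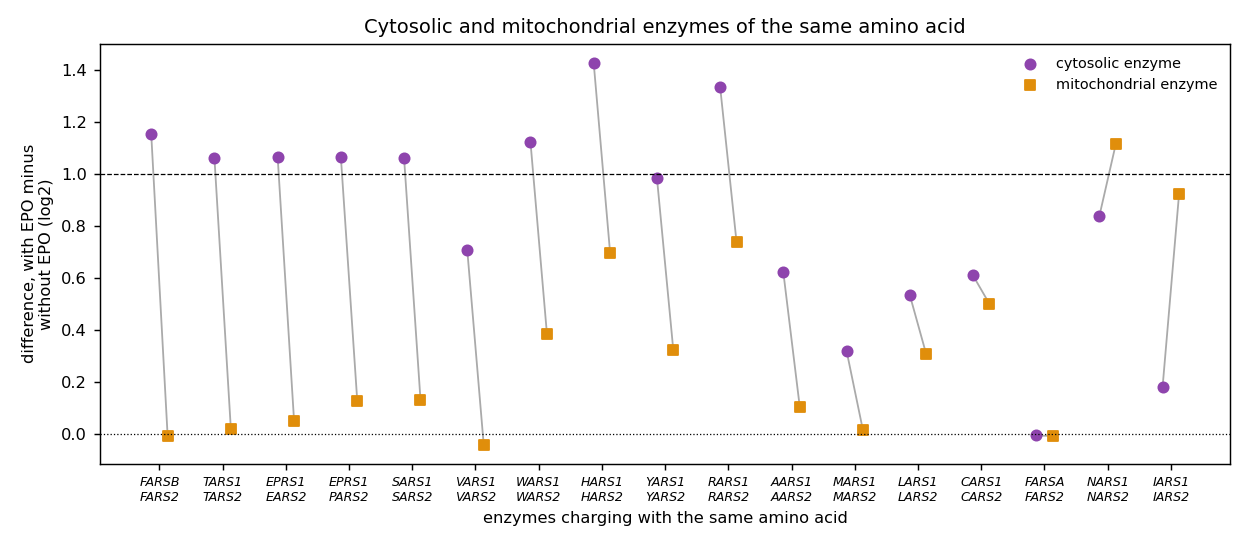
Difference with EPO minus without EPO (y axis, log2) for the cytosolic gene (purple circle) and the mitochondrial gene (orange square) of each of 17 pairs that charge with the same amino acid, ordered by the gap, with 2-fold dashed. The circle is above the square in 15 pairs and below it for NARS1 with NARS2 and IARS1 with IARS2.

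By catalytic fold the sets were less far apart. Class I enzymes, which share a Rossmann fold, had a median difference of 0.54 over 19 genes, with 3 at least 2-fold higher. Class II enzymes, which are built on an antiparallel beta sheet, had a median of 0.77 over 16 genes, with 6 at least 2-fold higher. The shares were 15.8% of class I and 37.5% of class II, beside 6.19% of all genes and 17.2% of machinery genes. EPRS1, which joins a domain of each class, was counted in class I. Cytosolic genes made up 10 of the 19 class I members and 9 of the 16 class II members, so the compartments were mixed in much the same way in both.

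The promoter sequences were set beside these differences. Among the 16 cytosolic genes with a window, the 7 that hold the TGATGNAA core had a median difference of 0.62 (0.18 to 1.06), with TARS1 the 1 gene past 2-fold. The 9 without it had a median of 1.12 (-0.0046 to 1.69), with 7 past 2-fold. Genes that hold the core thus stood lower in the set than genes that do not, although the ranges overlap. This order was not particular to the core. The 7 cytosolic genes with the CCAAT box, which 42.5% of genes hold, had a median of 0.62 and the 9 without it 1.07. AARS1, CARS1, IARS1, NARS1 and TARS1 hold both motifs. The 12 cytosolic genes with the GC box (GGGCGG) had a median of 0.91 and the 4 without it 1.24. The STAT5 motif TTCNNNGAA, which the factor downstream of the EPO receptor recognises, was present in windows of 3 of 16 cytosolic genes (CARS1, TARS1 and WARS1) and of 2 of 14 mitochondrial genes (PARS2 and WARS2), against 9.15% of genes. The ETS motif CCGGAAG was present in 9 of the 16 cytosolic genes and 7 of the 14 mitochondrial genes, against 17.1% of genes. The E-box motif CACGTG was present in windows of 1 of 16 cytosolic genes and 3 of 14 mitochondrial genes, against 11.1% of genes. All motifs were searched on both strands, and in TARS1 the ETS motif overlaps a STAT5 motif. Cytosolic genes with the STAT5 motif had a median difference of 1.06 and those without it 0.97. Cytosolic genes with the ETS motif had a median difference of 1.06 and those without it 0.56, whereas mitochondrial genes had 0.13 with it and 0.39 without it.

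Some of these genes start back to back with a neighbour. In 7 cases a gene on the opposite strand started within 300 bases, and in 6 of these the neighbour was measured. HARS1 and HARS2 are such a pair on chromosome 5, with 84 bases between their starts, and both were higher with EPO, by 1.43 and 0.70. KARS1 shares its start region on chromosome 16 with TERF2IP, which encodes the telomere protein RAP1 and stood at 0.075 with EPO and at -0.81 without EPO (0.88). Both stretches are shown in GRCh38.p14, and were picked from the 6 after the differences had been seen. They run 5′ to 3′ on the minus strand toward the start of HARS1 and of KARS1. Capitals mark the ETS motif on either strand and, in KARS1, also the GC box (GGGCGG on either strand, present in 66.7% of genes).
HARS1 and HARS2, chr5:140691371-140691454: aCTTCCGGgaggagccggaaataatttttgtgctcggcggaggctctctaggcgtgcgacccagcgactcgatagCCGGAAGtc
KARS1 and TERF2IP, chr16:75647666-75647772: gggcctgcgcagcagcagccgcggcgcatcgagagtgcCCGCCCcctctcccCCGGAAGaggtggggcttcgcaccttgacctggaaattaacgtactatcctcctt
RARS2 and the origin recognition gene ORC3 differed by 0.74 and 0.55, and SARS2 and the mitochondrial ribosomal gene MRPS12 by 0.13 and 0.068. Neighbours did not always stand together. WARS1 had a difference of 1.12 and its neighbour WDR25 of -0.062, although the stretch between them, not shown, also holds the ETS motif. FARS2 had -0.0066 and LYRM4, a gene of iron-sulphur cluster assembly, 0.80.

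For contrast, the upstream 250 bases of FARSA and NARS2, the lowest cytosolic and the highest mitochondrial gene, are shown in GRCh38.p14 on the minus strand, 5′ to 3′, with GC boxes in capitals. None of the other motifs above lies in these 250 bases.
FARSA, chr19:12933712-12933961: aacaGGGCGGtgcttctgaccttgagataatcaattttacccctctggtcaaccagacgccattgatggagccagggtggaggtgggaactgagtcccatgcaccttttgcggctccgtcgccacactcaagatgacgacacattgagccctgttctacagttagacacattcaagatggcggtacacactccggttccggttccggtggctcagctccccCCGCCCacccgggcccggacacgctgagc
NARS2, chr11:78574865-78575114: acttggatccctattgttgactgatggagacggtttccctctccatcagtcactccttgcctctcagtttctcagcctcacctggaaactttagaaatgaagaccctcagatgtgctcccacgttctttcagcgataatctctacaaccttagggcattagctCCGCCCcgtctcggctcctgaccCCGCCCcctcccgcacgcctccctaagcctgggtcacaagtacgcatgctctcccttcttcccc

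Genes that act beside the synthetases were listed by role. With the machinery median subtracted, none of the 14 genes of these and the later lists named as at least 2-fold higher stayed past 2-fold. The accessory list holds enzymes that finish, correct or bypass direct charging, and also the synthetase TARS3, with a difference of 0.11. Of its 10 measured genes, 2 passed 2-fold upward (20%, beside 6.19% of all genes and 17.2% of machinery genes), and the list median was 0.46. Mitochondrial glutaminyl-tRNA is made without a glutamine enzyme: EARS2 first loads glutamate, and an amidotransferase of the subunits QRSL1, GATB and GATC converts it. QRSL1 stood at 0.24 with EPO and at -1.05 without EPO (1.29, 2.44-fold). GATC had a difference of 0.68 and GATB of 0.071, and EARS2 one of 0.051. DTD2, a deacylase that removes wrongly attached amino acids, stood at 0.27 with EPO and at -0.86 without EPO (1.13, 2.19-fold). MTFMT, which formylates the initiator tRNA of mitochondria, stood at 0.33 with EPO and at -0.58 without EPO (0.91).

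In the list of RNA polymerase III and tRNA maturation, which makes the tRNAs themselves, 3 of 31 measured genes passed 2-fold upward (9.68%, between the 6.19% of all genes and the 17.2% of machinery genes) and 0 downward, with a median of 0.37. The polymerase subunit POLR3F stood at 0.27 with EPO and at -1.13 without EPO (1.40). RPP14, a subunit of the RNase that trims tRNA leaders, stood at 0.27 with EPO and at -0.87 without EPO (1.14), and the tRNA ligase RTCB at 0.17 with EPO and at -0.95 without EPO (1.12). Genes of cytosolic elongation were nearer 0, among them EEF1A1 and EEF1A2, the factors that receive charged tRNA (0.046 and -0.11). Of 7 measured cytosolic elongation genes, 0 were past 2-fold and the median was 0.046, with EEF2, the translocase, at 0.53, EEF1G at 0.32 and the kinase EEF2K at 0.18. The 9 measured mitochondrial translation factors had a median of 0.48, with the initiation factor MTIF2 past 2-fold (0.19 with EPO and -1.16 without EPO, a difference of 1.36) and MTRF1 and MTIF3 at 0.79 and 0.69. In the cytosol the synthetases therefore had a higher median than the elongation factors (0.97 against 0.046), and in the mitochondrion a lower median than the translation factors (0.22 against 0.48).

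**Figure D4:**
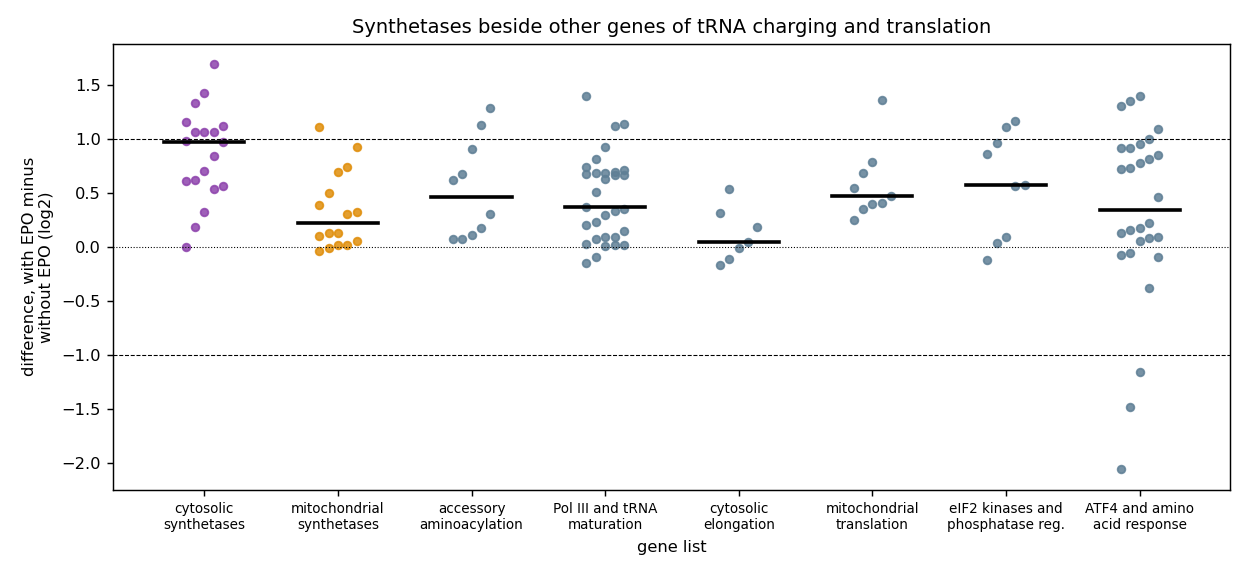
Difference with EPO minus without EPO (y axis, log2) of each measured gene (points) in the 2 synthetase sets and 6 lists of related genes (x axis), with the list median as a black bar and 2-fold dashed. Cytosolic synthetases have the highest median, 0.97, cytosolic elongation factors the lowest, 0.046, and 3 genes of the ATF4 list, ATF4 itself among them, lie below -1.

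ATF4 and its other targets lay on both sides of 0. ATF4 stood at -0.70 with EPO and at 1.36 without EPO, a difference of -2.06. Its sign is opposite to that of 18 of the 19 cytosolic synthetases, with or without the TGATGNAA core. The ATF4 partner CEBPB stood at -0.28 with EPO and at 1.20 without EPO (-1.48). CHAC1, which degrades glutathione, stood at -0.017 with EPO and at 1.15 without EPO (-1.16). In the other direction lay enzymes and carriers that supply amino acids. PHGDH, the first enzyme of serine synthesis, stood at 0.30 with EPO and at -1.10 without EPO (1.40), and PSPH, the last, at 0.25 with EPO and at -1.06 without EPO (1.31). The cationic amino acid carrier SLC7A1 stood at 0.27 with EPO and at -1.07 without EPO (1.35), and the mitochondrial folate enzyme MTHFD2 at 0.14 with EPO and at -0.95 without EPO (1.09). Of the 28 genes, 4 were at least 2-fold higher (14.3%, beside 6.19% of all genes) and 3 at least 2-fold lower (10.7%, beside 0.898%), with a median of 0.35. By the probe of smallest difference PSPH and MTHFD2 stood at 0.99 and 0.86, and with the silent median subtracted CHAC1 stood at -0.84, all short of 2-fold. Windows of 7 of the 22 list genes that have them held TGATGNAA, and those 7 had a median difference of -0.058 against 0.46 for the other 15. ATF4 activity is set largely by translation, which these arrays do not measure.

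The kinases that phosphorylate eIF2 and so raise ATF4 translation belong to a list of 9 genes with a median of 0.57. In it EIF2AK2, the kinase that senses double-stranded RNA, stood at 0.089 with EPO and at -1.07 without EPO (1.16), and EIF2S1, the phosphorylated subunit itself, at 0.17 with EPO and at -0.95 without EPO (1.11). IMPACT, an inhibitor of GCN2 activation, stood at 0.96. EIF2AK4, which encodes GCN2, the kinase that uncharged tRNA activates, stood at 0.86, named after its value was seen. The remaining kinases of the list, EIF2AK1 and EIF2AK3, stood at 0.57 and 0.038, also named after their values were seen. The lowest difference in the list was -0.12, for PPP1R15B.

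The lists of lymphoid, myeloid and epithelial markers each had a median below 0. Only 1 of the 8 granulocyte and monocyte markers and 2 of the 8 epithelial and stromal markers were above 0. Their differences lay within the range of the cytosolic synthetases, whereas the highest lymphoid difference was -0.20. The 7 measured lymphoid markers had a median of -0.32, with CD7 at -0.67, CD3D at -0.67 and CD2 at -0.45. The 8 granulocyte and monocyte markers had a median of -0.33, with LYZ at 1.05, FCN1 at -0.77 and CEBPA at -1.07. The 8 epithelial and stromal markers had a median of -0.32, with COL1A1 at -0.57, ACTA2 at 0.83 and EPCAM at 1.25. LYZ and EPCAM, like the synthetases, were above the baseline with EPO (0.24 and 0.084) and below it without EPO (-0.81 and -1.17). All 3 medians are close to the -0.33 of the silent families, and the part of other cells in the synthetase result was not tested.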

How the data were processed

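Total RNA of 2 K562 cultures was hybridised to 1 Affymetrix Gene ST array each, per the labels' protocols. The authors deposited a table of 28869 probes in which each log2 value is centred on a baseline per probe; background correction, summarisation, normalization, software, log base and the arrays behind the baseline are not stated in the labels. In 631 probes the 2 values cancelled to within 1e-05, as values on either side of a median would. Of the probes, 19310 carried a single gene symbol, 1752 several and 7807 none, and 19279 of the 19310 were matched to RefSeq by Entrez ID. Probes were averaged per gene, giving 18377 genes.

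Differences are with EPO minus without EPO, with no test; precision is limited by the number of arrays. No filter on dim genes was possible on centred values. All 35 synthetases are named. From each other list, all genes past 2-fold are named, or the 3 largest differences where fewer than 3 pass. GATB, GATC, TARS3, EEF1A1, EEF1A2, EIF2AK1, EIF2AK3 and EIF2AK4 are named besides, for their roles, and PPP1R15B as the lowest of its list. The members and lists were chosen with earlier results of these data known, and the motifs other than TGATGNAA and the neighbouring genes were examined after the differences had been seen. The promoter shown for each set was that of its highest and lowest member, as far as at hand; a planned comparison of protein sequences was not made. Alternatives were other scalings, a 1.5-fold threshold, other probe rules, the mean, and sets without GARS1 and KARS1 or without genes of several probes. Python 3.11.15, NumPy 2.4.6, pandas 2.3.3 and Matplotlib 3.10.9 were used.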

Additional observations from a re-analysis of the deposited data

How the results depend on the processing

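The cytosolic median of 0.97 became 1.02 after subtracting the all-gene median, 0.49 with the machinery median subtracted, 1.30 with the silent median subtracted, 0.86 as a mean, 0.84 without GARS1 and KARS1 and 0.98 without genes of several probes. The mitochondrial median of 0.22 was 0.27, -0.26, 0.55, 0.34, 0.22 and 0.31 under the same settings, so that its sign changed under the machinery scaling. The gap of 0.75 was 0.52 as a mean, 0.62 without GARS1 and KARS1 and 0.67 without genes of several probes. It stayed at 0.75 under the probe rules, and under the scalings by construction, since each subtracts a constant. The count of 8 cytosolic genes became 1 with the machinery median subtracted and 14 at 1.5-fold, where 18.1% of all genes were higher. It was 10 and 12 with the all-gene and silent medians subtracted, against 7.17% and 15.1% of all genes. The count of 1 mitochondrial gene became 0 with the machinery median, 4 with the silent median and 4 at 1.5-fold. The settings differ by a constant, a threshold or the genes counted, which accounts for these changes by construction. Choosing another probe or adding probes of several genes changed no call among the 35, and no such probe of several genes named a synthetase. Of the 67 genes named by the rule above, 0 that had passed 2-fold changed sign under another probe rule. The scalings could not have reversed such a gene, since the largest constant they subtract is 0.48. The calls of list genes were less stable. Of the 14 named list genes at least 2-fold higher, 0 stayed so with the machinery median subtracted and 12 by the probe of smallest difference. Of the 4 lower, 2 stayed so with the silent median subtracted. No paired analysis was possible because each group has 1 array. Signal over background is unknown, so genes near the baseline on both arrays may be unchanged or too dim to measure.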
